A study of Arabidopsis thaliana with 4 samples.

Results

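Serine carboxypeptidase-like (SCPL) genes were examined in inflorescences of the Arabidopsis thaliana mutant agamous and of wild type. All genes were taken whose symbol is SCPL or scpl followed by a number and that had a probe listed with that gene alone. This gave 10 genes, scpl18, scpl23, scpl25, scpl29, SCPL32, scpl33, scpl38, SCPL43, scpl44 and SCPL49, of 49 loci with such a symbol in the RefSeq table and of 5438 loci measured singly on the arrays. They were read by 11 probes, 2 of them for scpl29. Of the other SCPL genes, 20 were listed only on probes that name several genes, and 19 were on no probe with a gene listed here.

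AGAMOUS encodes a transcription factor of the MADS family. It gives stamens and carpels their identity and stops the floral meristem from growing on. Flowers of the mutant repeat petals and sepals in place of the reproductive organs. The labels give only the genotypes agamous and wild-type and the tissue, inflorescences, and name no allele, ecotype, age or treatment. In such bulk tissue fewer cells of a type and less RNA per cell cannot be told apart.

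SCPL proteins belong to the large family of serine carboxypeptidases, which share an alpha/beta hydrolase fold and a catalytic triad of serine, aspartate and histidine. Most enzymes of the family were named from sequence. Some are peptidases that remove amino acids from the carboxyl end of proteins in the vacuole or outside the cell. Others have become acyltransferases, which move an acyl group from a glucose ester to another molecule. The best known of these in Arabidopsis is SNG1, which makes sinapoylmalate. BRS1, another relative, acts in brassinosteroid signalling when it is overexpressed. Of the genes measured here, SCPL49 carries the synonym carboxypeptidase Y, the name of the vacuolar carboxypeptidase of yeast.

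Each of 4 2-colour long-oligonucleotide arrays was hybridised with both RNAs and gives 1 log2 ratio per probe. By the labels, channel 1 held the agamous RNA on arrays 1 and 3, and channel 2 held it on the other pair, arrays 2 and 4. The deposited ratios did not follow that order. With values at the bounds of the table (plus and minus 6.64) left out, arrays 1 and 4 correlated across probes with Pearson's r = 0.70 and arrays 2 and 3 with r = 0.77, whereas the other pairs lay between -0.65 and -0.78. With all values kept, as in the test below, arrays 1 and 4 had r = 0.60 and arrays 2 and 3 r = 0.49. Array 2 then opposed arrays 1 and 4 (r = -0.51 and -0.45), but array 3 hardly did (r = -0.08 and -0.05). These correlations are across genes, which are not independent replicates. The direction of the ratios is therefore not settled. Values are given as deposited and with the sign of arrays 2 and 3 turned, a reading chosen after the correlations had been seen. In the turned reading a negative ratio is likely a lower level in agamous, because transcripts of anthers and ovules, organs that agamous flowers lack, are negative there. With the opposite overall sign every fall below becomes a rise. Precision is limited by the number of arrays. Whether they stem from separate plants is not stated, and p-values cover the spread between arrays only.

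Of the 10 SCPL genes, 3 fell in agamous in the turned reading. On the mean of 4 arrays scpl38 and SCPL43 fell more than 10-fold and SCPL49 less. A gene was called at an adjusted p under 0.05 in limma's test of the mean ratio against 0, with Benjamini-Hochberg adjustment over all 26100 features tested. By this rule 9.16% of all features were lower and 8.23% higher, and among the 5429 loci tested 7.85% were lower. No SCPL gene was called higher (0 of 10, with 4 of 10 at an unadjusted p under 0.05 in either direction, against 36.6% of all features). The median of the mean log2 ratio was 0.02 over the 10 SCPL genes and 0.15 over all features. All 10 had a value on each of the 4 arrays, and 0 of their 40 values lay at a bound.

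scpl38 (AT2G05850), a gene on chromosome 2, had deposited log2 ratios of -3.14, 3.26, 4.86 and -2.91 on arrays 1 to 4. Arrays 2 and 3 were high and arrays 1 and 4 low, and the size of the ratio was alike on 3 arrays and larger on array 3. With arrays 2 and 3 turned, the mean was -3.54 ± 0.89 (SD, n = 4), an 11.7-fold difference with a 95% interval of 6.0 to 22.7-fold (adjusted p = 0.00736, limma). Without array 3 the mean was smaller in size, -3.10, and the gene was still called (adjusted p = 0.00700, limma). Without array 2 the mean was larger in size, -3.64, but the call ended (adjusted p = 0.0551, limma). Over all features, the count of calls in either direction was 1050 without array 2 and 4539 with all 4 arrays. The call of scpl38 also ended with an unmoderated spread (adjusted p = 0.0533).

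SCPL43 (AT2G12480), also on chromosome 2, had deposited ratios of -3.14, 3.58, 3.86 and -2.82 on arrays 1 to 4. The order of the signs was that of scpl38, and the sizes differed less between arrays. The turned ratios averaged -3.35 ± 0.46 (SD, n = 4), a 10.2-fold difference with a 95% interval of 7.06 to 14.8-fold (adjusted p = 0.00194, limma). SCPL43 was called with any 1 of the 4 arrays left out.

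SCPL49 (AT3G10410), the gene with the synonym carboxypeptidase Y, had deposited ratios of -1.09, 1.57, 1.66 and -1.24. It followed the same order of signs with a smaller size on every array. The turned mean was -1.39 ± 0.27 (SD, n = 4), a 2.62-fold difference with a 95% interval of 2.04 to 3.38-fold (adjusted p = 0.00670, limma). Without array 2 the mean was -1.33 and this call too ended (adjusted p = 0.0534, limma).

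**Figure D1:**
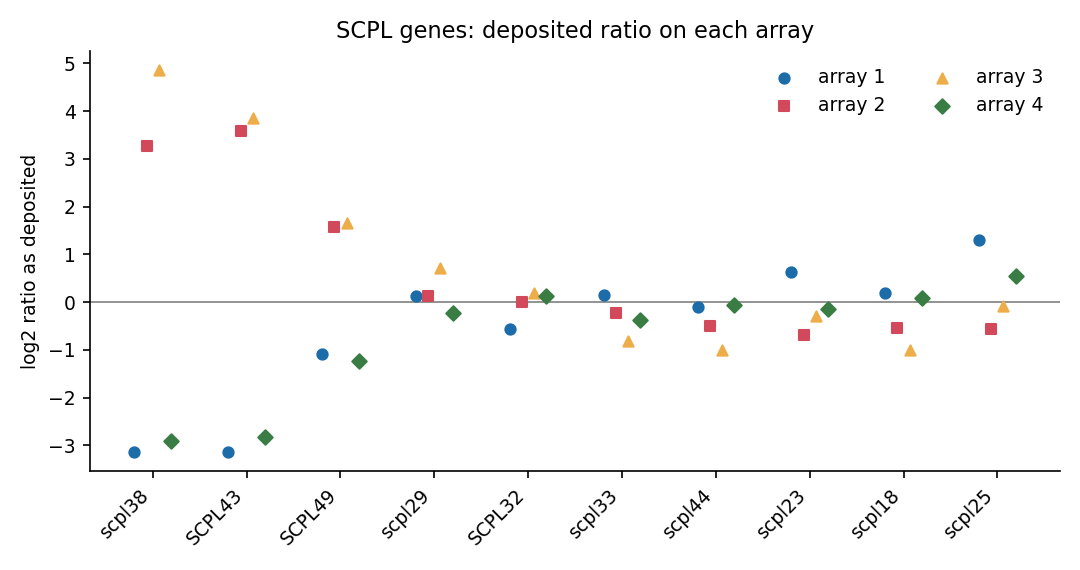
Deposited log2 ratio of each of the 10 SCPL genes on arrays 1 to 4, 1 point per array. For scpl38, SCPL43 and SCPL49 arrays 2 and 3 lie above 0 and arrays 1 and 4 below, while the points of the other 7 genes lie between -1.0 and 1.31.

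On each array scpl38 and SCPL43 had the largest and next largest ratios by size among the 10 genes. They exceeded SCPL49 in size by 1.67 to 3.20 and by 1.58 to 2.20 on the log2 scale over the 4 arrays. scpl38 and SCPL43 did not keep an order between them. Their turned ratios differed by 0.0013, 0.32, -1.0 and -0.08 on arrays 1 to 4 (scpl38 minus SCPL43). Their 95% intervals, -4.50 to -2.58 and -3.89 to -2.82, overlap, and neither overlaps that of SCPL49, -1.76 to -1.03. These differences between genes are ratios of different probes and were given no test.

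Among the 5429 loci tested, scpl38 had the 56th lowest and SCPL43 the 67th lowest mean, and SCPL49 stood at rank 287. At least 8-fold falls past the test made up 1.64% of these loci and at least 2-fold falls 5.82%. Of the 10 SCPL genes, 3 were lower on all 4 turned arrays, against 16.5% of the features with 4 values. They are the 3 that passed the test on the same arrays, so that their common sign is no separate evidence.

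**Figure D2:**
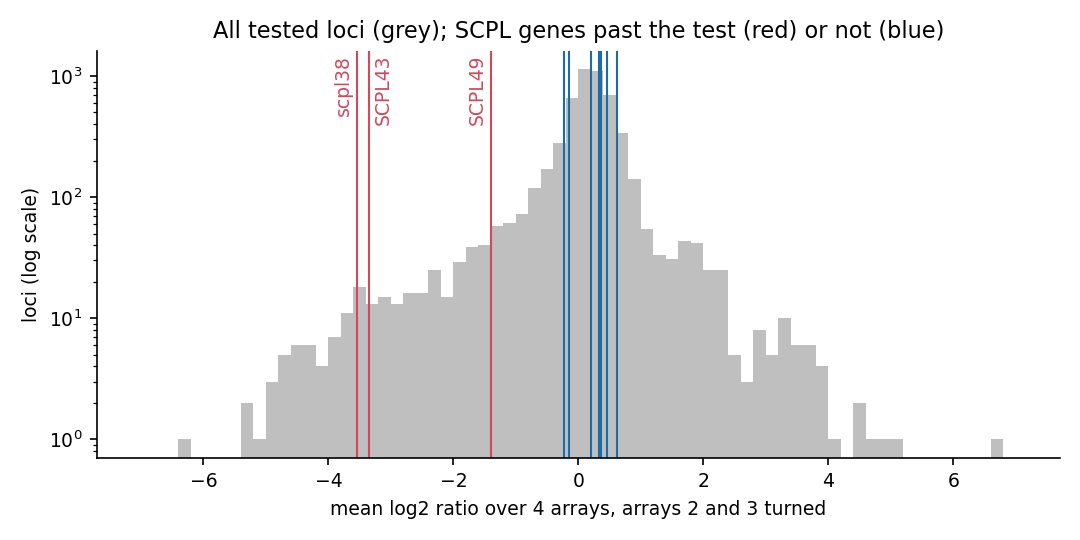
Histogram of the mean log2 ratio over 4 arrays (arrays 2 and 3 turned) for all tested loci, with the number of loci on a log scale. Red lines mark the 3 SCPL genes past the test, at -3.54, -3.35 and -1.39, and blue lines the other 7, which lie between -0.24 and 0.62.

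The other 7 genes did not pass the test, with adjusted p between 0.119 and 0.526 (limma). Their turned means lay between -0.24 and 0.62, 5 above and 2 below 0. A p that misses the threshold does not show that these genes did not differ, and their intervals bound the size.

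scpl25 (AT3G02110) had the highest mean of the 10. Its deposited ratios were 1.31, -0.56, -0.08 and 0.54, opposite in sign to those of SCPL43 on every array. The turned mean was 0.62 ± 0.51 (SD, n = 4), with a 95% interval of 0.05 to 1.20 that is not adjusted for the number of features (adjusted p = 0.119, limma). Array 1 alone lay above 1 on the log2 scale, and the mean was 0.40 without it.

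scpl18 (AT1G33540) had deposited ratios of 0.18, -0.54, -1.0 and 0.10 and was, like scpl25, higher on all 4 turned arrays, as were 31% of the features with 4 values. The medians over probes of all 4 turned arrays also lay above 0. scpl18 was below the median on array 4 (0.10 against 0.13), and scpl25 was below it on array 3. The turned mean of scpl18 was 0.46 ± 0.41 (SD, n = 4), with a 95% interval of -0.03 to 0.94. Arrays 2 and 3 carried most of it, and the mean was 0.27 without array 3. Quantile normalization raised the mean to 1.17 without a call (adjusted p = 0.311, limma).

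scpl23 (AT2G24010) had deposited ratios of 0.63, -0.70, -0.28 and -0.14, so that array 4 differed in sign from the other 3 after turning. Its turned mean was 0.37 ± 0.39 (SD, n = 4), with a 95% interval of -0.10 to 0.83. It is the only one of the 10 genes that lies next to another SCPL gene, scpl22, in the order of protein-coding genes, and scpl22 had no probe listed with it alone.

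scpl44 (AT1G43780) ran the same way on all 4 arrays as deposited, the only 1 of the 10 to do so, with -0.10, -0.50, -1.0 and -0.07. Its deposited mean was -0.42 ± 0.44 (SD, n = 4). Over all features 8.67% had 1 sign on all 4 arrays as deposited. In the turned reading scpl44 had 2 arrays above and 2 below 0, a mean of 0.33 ± 0.52 (SD, n = 4) and a 95% interval of -0.26 to 0.92. The mean was 0.11 without array 3. Quantile normalization moved this mean to 1.05 (adjusted p = 0.373, limma).

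scpl33 (AT3G17180) had deposited ratios of 0.15, -0.23, -0.81 and -0.38, and a turned mean of 0.20 ± 0.49 (SD, n = 4) with a 95% interval of -0.36 to 0.76. The mean rested on array 3 and was -0.0010 without it and 0.40 without array 4.

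scpl29 (AT4G30810), the only one with 2 probes, had deposited gene means of 0.12, 0.13, 0.71 and -0.23. The probes differed by at most 0.16 on any array, less than the spread between arrays. The turned mean was -0.24 ± 0.35 (SD, n = 4), with a 95% interval of -0.67 to 0.19, and the mean was -0.08 without array 3 and -0.36 without array 1.

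SCPL32 (AT1G61130) had deposited ratios of -0.56, 0.0013, 0.18 and 0.13. Only array 1 stood more than 0.5 from 0. Its turned mean was -0.15 ± 0.30 (SD, n = 4), with a 95% interval of -0.54 to 0.23, and the mean was -0.02 without array 1 and -0.25 without array 4.

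**Figure D3:**
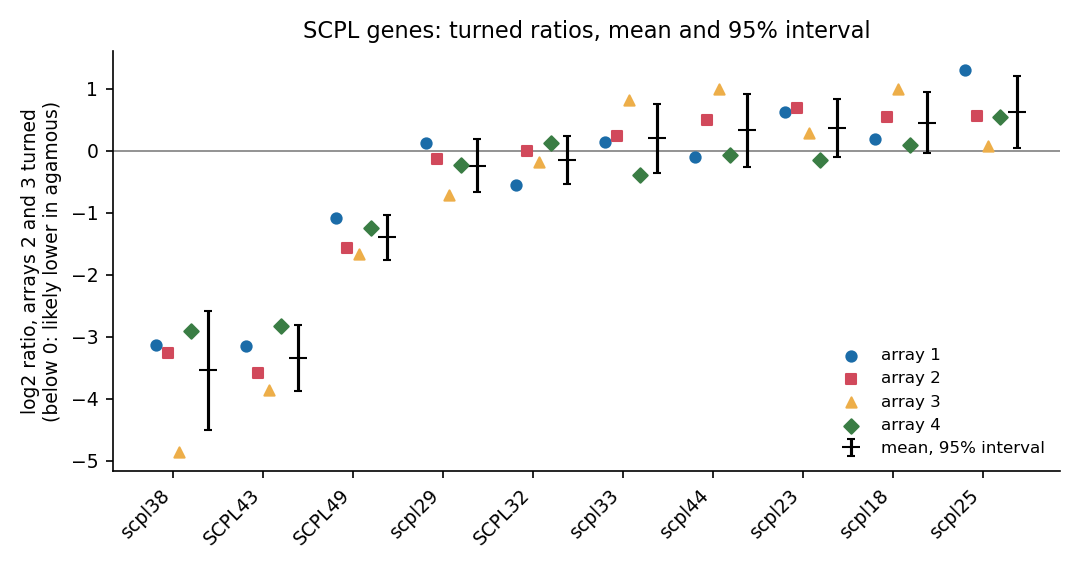
Log2 ratios of the 10 SCPL genes with arrays 2 and 3 turned (coloured points, 1 per array), with the mean and its 95% interval from limma (black). scpl38, SCPL43 and SCPL49 lie below 0 on all 4 arrays, and the 7 other genes lie between -0.71 and 1.31.

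As deposited, 0 of the 10 SCPL genes passed limma's test (0 of 10 at an unadjusted p under 0.05). Over all features 0.226% passed, and 2.29% had an unadjusted p under 0.05. Their deposited means lay between -0.42 and 0.52, because arrays of opposite sign cancelled. scpl38 had a deposited mean of 0.52 ± 4.15 and SCPL43 of 0.37 ± 3.87 (SD, n = 4 each). Turned by the channel order of the labels (arrays 2 and 4), again 0 of 10 passed limma's test (0 of 10 at an unadjusted p under 0.05). Over all features 0% passed, and 0.732% had an unadjusted p under 0.05. Their means in that reading lay between -0.13 and 0.34, with SCPL43 at -0.01 ± 3.90 (SD, n = 4). Of these 3 readings, only that with arrays 2 and 3 turned gave SCPL calls, whose signs were taken from the same arrays.

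Centring each array on its median moved the median of all features by -0.14, and the split of calls over all features from 2392 lower and 2147 higher to 2671 lower and 880 higher. Centring and scaling gave 2694 lower and 995 higher. The 3 SCPL calls held under both, with SCPL43 at -3.49 and -3.52, scpl38 at -3.68 and -3.75, and SCPL49 at -1.53 and -1.55.

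**Figure D4:**
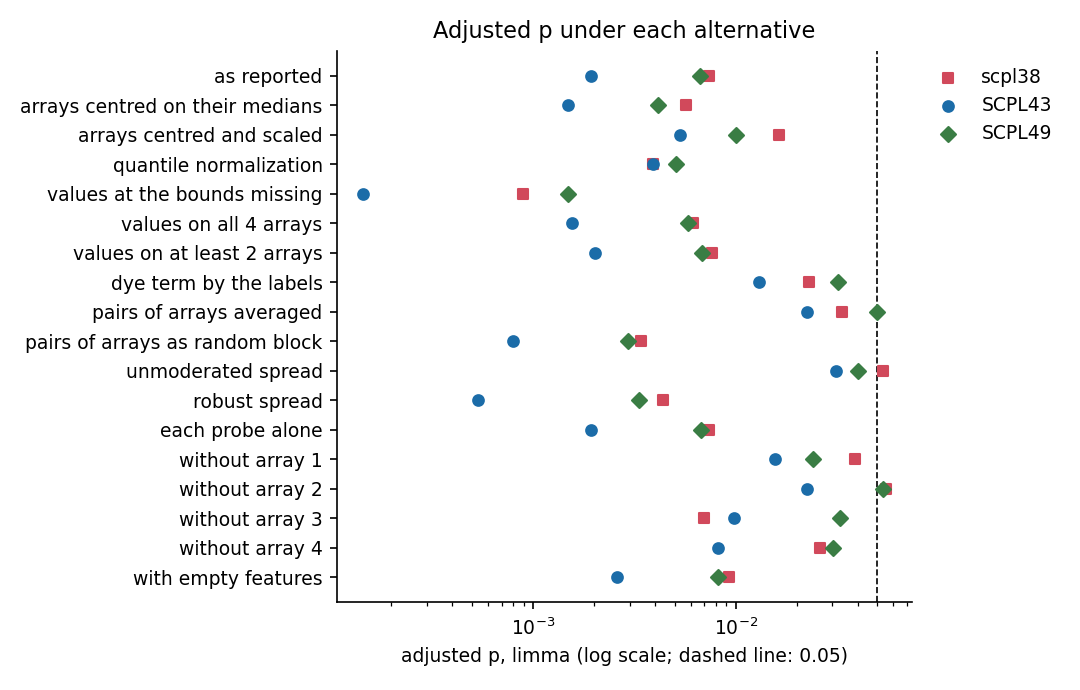
Adjusted p from limma (log scale) of scpl38, SCPL43 and SCPL49 as reported and under each alternative, with the threshold of 0.05 dashed. SCPL43 stays below it throughout, while scpl38 crosses it with an unmoderated spread and without array 2, and SCPL49 without array 2.

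Probes that list several genes, at least 1 of them SCPL, numbered 18, and 16 of these list SCPL genes only. Their signal cannot be given to 1 gene, and they were looked at after the values of the 10 genes were known. Of the 18, 4 were lower and 0 higher by the same test, against 9.16% lower and 8.23% higher over all features. All 4 list SCPL genes only. Their turned means were -3.9 ± 0.58 (probe A024941_01, adjusted p = 0.00212), -1.99 ± 0.41 (probe A023079_01, adjusted p = 0.00544), -1.74 ± 0.38 (probe A022478_01, adjusted p = 0.00695) and -0.79 ± 0.31 (probe A010971_01, adjusted p = 0.0347; SD, n = 4 each, limma). The call of A010971_01 ended with any array left out (adjusted p from 0.0772 to 0.0987), and that of A022478_01 without array 2 (adjusted p = 0.0555). A010971_01 also lost its call with a dye term and with an unmoderated spread (adjusted p = 0.0837 and 0.0902). With pairs of arrays averaged (1 with 2 and 3 with 4), only A024941_01 kept its call (adjusted p = 0.0226, limma). A022478_01, A023079_01 and A010971_01 then lost theirs (adjusted p = 0.0580, 0.0659 and 0.129, limma). The means of all 18 ran from -3.9 to 0.51, with a median of -0.39. Some of these probes also list members of the 10, and 6 of the 10 genes occur on at least 1 of them.

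Markers of stamens, carpels, ovules and nectaries had the same sign as the 3 SCPL genes in the turned reading. Of 8 measured markers, 6 fell in the turned reading. All 8 were lower on all 4 turned arrays, with means from -4.99 to -0.22 and a median of -2.17. These markers were chosen with earlier results of these data known, so that their count does not stand for genes of these organs in general. CES, a regulator of the transmitting tract, had a mean of -4.99 ± 0.77, SWEET8, a sugar transporter of the tapetum, -4.68 ± 0.86, and SWEET9, the nectary sugar transporter, -4.55 ± 0.66 (SD, n = 4 each). ATA20, an anther gene, had -2.83 ± 0.24, INO, which builds the outer integument of the ovule, -1.52 ± 0.47, and EMS1, a receptor kinase of tapetum formation, -1.35 ± 0.03 (SD, n = 4 each). TUA1, a pollen tubulin, and SPL, which starts sporogenous cells, had -0.44 ± 0.15 and -0.22 ± 0.10 and did not pass, although TUA1 did after centring (-0.57, adjusted p = 0.0351). INO lost its call without array 2, 3 or 4 and with an unmoderated spread (adjusted p from 0.0615 to 0.0752, limma). Anther and ovule genes set the sign of the turned reading, so that their fall is no separate evidence. The part of lost organs in the SCPL values was not tested. AGAMOUS had no probe listed with it alone and thus gave no check of the labels.

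**Figure D5:**
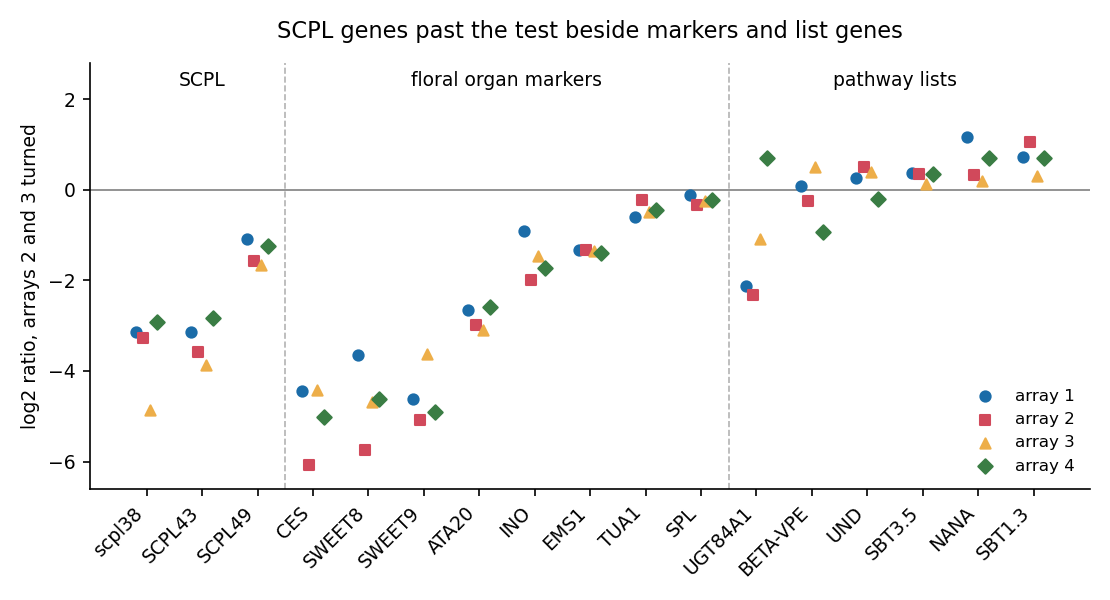
Log2 ratios on each array (arrays 2 and 3 turned) for the 3 SCPL genes past the test, 8 floral organ markers and 6 genes of the pathway lists. The SCPL genes lie within the range of the markers, whose means run from -4.99 to -0.22, and 5 of the 6 list genes have means between -0.14 and 0.71.

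Few genes of the routes around the family were measured singly, 6 of 75 names on 4 lists. Of these 6, 1 was called higher and 0 lower. From the sinapate and phenylpropanoid list, only UGT84A1 was measured, a glucosyltransferase that makes the hydroxycinnamoyl glucose esters used as donors by acyltransferases of the SCPL family. UGT84A1 had turned ratios of -2.12, -2.32, -1.09 and 0.70, with array 4 apart in sign, and a mean of -1.21 ± 1.38 (SD, n = 4, adjusted p = 0.194, limma). No gene of the brassinosteroid perception list was measured singly (0 of 10), nor were SNG1 or BRS1.

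From the list of other proteases, 5 genes were measured. SBT1.3, a subtilisin-like serine protease, was higher, with turned ratios of 0.74, 1.05, 0.32 and 0.71 and a mean of 0.71 ± 0.30 (SD, n = 4, adjusted p = 0.0419, limma). That call ended under 10 of 16 alternatives, with each array left out and after centring (0.57, adjusted p = 0.0712) among them. SBT3.5, another subtilase, had 0.31 ± 0.11, the aspartic proteases NANA and UND 0.61 ± 0.44 and 0.24 ± 0.31, and BETA-VPE, a vacuolar processing enzyme, -0.14 ± 0.60 (SD, n = 4 each), and none of these 4 passed.

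The genes with ratios nearest to those of the 3 SCPL genes were found among 522 genes with a symbol, by Euclidean distance over the 4 deposited ratios. For SCPL43 these were the urease gene URE (distance 0.40), the endoglucanase gene GH9A4 (0.58) and SHT, a spermidine hydroxycinnamoyl transferase (0.58). URE had deposited ratios of -3.07, 3.34, 4.17 and -2.87, against -3.14, 3.58, 3.86 and -2.82 for SCPL43. For scpl38 the nearest were URE (0.70), the endoglucanase gene GH9B11 (0.71) and SHT (0.84). For SCPL49 they were ZIP6, a metal transporter of the ZIP family (0.27), the tetraspanin gene TET12 (0.42) and EMS1 (0.48). With 4 points that share their arrays, nearness is a description of size and sign.

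Neighbouring genes were measured singly for 3 of the 10, none of them a gene that fell. AT3G02100 next to scpl25 had a turned mean of 0.20 ± 0.43, AT4G30800 next to scpl29 0.28 ± 0.38 and AT1G43770 next to scpl44 0.25 ± 0.13 (SD, n = 4 each), and none passed limma's test. Gene order was taken from assembly TAIR10.1, and no coordinates are printed because the sources used here name no build for the probes.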

How the data were processed

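The authors deposited normalized log2 ratios, each set by the 2 channels of 1 array. Per the labels they followed a publication, and the steps are not given in the sources used here. That the scale is log2 follows from signed values that end at plus and minus 6.64, the log2 of 100. Numerator, centring and turning of swapped arrays stay unknown. The medians of arrays 1 to 4 were 0.16, -0.14, -0.11 and 0.13. The table held 26933 features. The tests used 26474 probes and left aside 424 empty features and 35 controls. Of the probes, 5784 had 1 gene in the platform annotation, 7497 several and 13193 none listed, and 5779 matched a RefSeq locus (TAIR10.1). Probes of 1 gene were averaged, which gave 26133 features and 5438 loci. Probes of a family can share signal with relatives.

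Features measured on 3 or 4 arrays were tested two-sided with lmFit and eBayes of limma 3.58.1 under R 4.3.3, with Benjamini-Hochberg adjustment at 0.05, after a test on simulated ratios. All SCPL genes were described. The nearest 3 named genes were given for the 3 with the largest means by size, and every measured list gene was named. The genes, lists, markers and turned reading were chosen with earlier results of these data known. 2 markers were not used because the reference table did not pair their names. Alternatives were centring, scaling, quantile normalization, rules for bounds, missing values, dye, blocks, spread and probes, and each array left out.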

Additional observations from a re-analysis of the deposited data

How the results depend on the processing

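SCPL43 kept its direction and its call under all 17 alternatives run on the turned ratios, with means from -3.53 to -3.18 and a largest adjusted p of 0.0312 (limma). scpl38 lost its call with an unmoderated spread (adjusted p = 0.0533) and without array 2, and SCPL49 only without array 2. The count of SCPL genes past the test was 1 without array 2 and 3 without any other single array. It was 0 as deposited and 0 turned by the labels. The 7 other SCPL genes gained no call, and of these scpl33 alone changed sign, with means from -0.0010 (without array 3) to 0.40 when 1 array was left out. BETA-VPE changed sign without array 4, with means from -0.36 to 0.12 when 1 array was left out. Over all features the count of 4539 was 1749 with a dye term and 1869 with an unmoderated spread. It was 1024 with pairs of arrays averaged and 6909 with these pairs as a random block. With 1 array left out it ran from 1050 (without array 2) to 1899 (without array 3). As deposited, the 59 calls were 14 after centring and scaling, 0 by limma with values at the bounds missing, 20 with values on all 4 arrays, 14 with pairs averaged, and 18 to 224 with 1 array left out. The cause of these shifts was not tested. Empty features tested with the probes, an alternative chosen after seeing the data, passed in 18 of 415 cases (4.34%), 2 of them lower. The pairs of arrays averaged or used as blocks were 1 with 2 and 3 with 4, set by array number. The ratios are paired within each array. With 1 group of arrays, there was no other group to pair by replicate number. Precision is limited by the number of arrays, and signal over background was not used here.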
